A study of Mus musculus with 3 samples.

Results

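The antiviral interferon-stimulated genes are the transcripts that cells switch on after sensing interferon and whose products block viral entry, RNA, translation or budding. The set was given as a list of 40 genes, without the Gbp and Irg GTPases, the Irf and Stat factors and the antigen presentation genes, and probes were assigned to it through their RefSeq accessions. Of the 40 genes 37 had a probe, 36 had a probe well above background, and these 36 were among 13161 genes with a level out of 20886 that could be named. Mx1, Mx2 and Oas1b matched no probe by accession. All 3 are annotated as transcribed pseudogenes in the C57BL/6J reference, a strain in which these loci are known to be defective. Oas1g, a near copy of Oas1a, stayed at background by both of its probes.

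Expression was measured on 3 single-colour Agilent arrays of CD4+ T cells collected 2 days after stimulation. The cells came from 8-week-old female C57BL/6 mice, and 1 array each was made from wild type (WT), Dll1-/- and Rbpj-/- cells. Dll1 is a membrane-bound Notch ligand and Rbpj is the DNA-binding factor through which Notch controls transcription. The series title frames the question as survival signals passed through Dll1 on activated helper T cells. The sources used here do not say which cells carried each deletion, how the cells were stimulated or whether animals were pooled. With 1 array per genotype no difference could be tested against the spread between animals, so every value below describes these 3 arrays.

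Type I interferons bind a receptor that activates the Jak1 and Tyk2 kinases. Type I interferon then sends a complex that contains Stat2 and Irf9 to the interferon-stimulated response element (ISRE) in the promoters of these genes, and interferon gamma acts through a different element. Activated T cells make interferon gamma themselves and respond to both kinds.

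Levels are log2 processed signals from which the array's 75th percentile was subtracted, averaged over the probes of a gene, so a level of 0 equals the brightness of that percentile. The share of probes well above background was 46.6%, 50.1% and 47.3% for WT, Dll1-/- and Rbpj-/-. The median spot SD of repeatedly printed probes was between 0.06 and 0.07 log2 on the 3 arrays, and it covers spot error only. Dll1 was below the detection limit on all 3 arrays, and Rbpj was at -0.50 log2 in Rbpj-/- relative to WT. Whether these probes lie inside the deleted parts is unknown here, so neither label was checked by them. Cd3e, which encodes a signalling chain of the T cell receptor, was detected on all 3 arrays, at 0.04 in Dll1-/- and -0.07 in Rbpj-/- relative to WT, and Cd4 was at -0.04 and 0.38.

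Antiviral genes were lower as a set in Rbpj-/- cells, led by Ifit3, Ifit1, Ifi44, Isg15, Oasl2, Cmpk2 and Zbp1. Of the 36 measured members 35 were below WT (60.2% of all 11578 genes measured on both arrays were), and the median difference was -0.61 log2 against -0.07 over all genes. At least 2-fold lower were 7 of 36 members, where 2.15% of all genes were. At least 1.5-fold lower were 19 of 36, against 6.91% of all genes. That count was 12 after normexp background correction with quantile normalization and 36 after scaling to spike-in probes. The spike-in scaling moved the median of all genes to -0.81, itself past 1.5-fold, so most measured genes were counted as lower under it. Of the members 0 were higher by 1.5-fold or 2-fold, where 4.86% and 1.38% of all genes were. In Dll1-/- cells the members were lower by much less. Of 36 members 31 were below WT (55.7% of 11811 genes), the median was -0.19 against -0.03 over all genes, and the differences ran from -0.46 to 0.40. There 0 of 36 members were 1.5-fold apart in either direction. Of all genes 2.25% were lower and 1.95% higher by 1.5-fold, and 0.745% were lower and 0.373% higher by 2-fold. In bulk RNA a smaller share of responding cells and less RNA per responding cell cannot be told apart.

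Set directly against each other, Rbpj-/- was below Dll1-/- in 34 of 36 members (55.1% of 11794 genes), with a median of -0.41 against -0.03 over all genes. At least 2-fold lower were 4 members, Ifi44, Ifit3, Ifit1 and Isg15 (2.61% of all genes), and at least 1.5-fold lower were 11 (6.34% of all genes). After scaling to spike-in probes the latter count was 33, with the median of all genes moved to -0.57. No member was 1.5-fold or 2-fold higher (5.24% and 1.55% of all genes). The 3 comparisons share arrays, so they are not independent of each other.

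**Figure D1:**
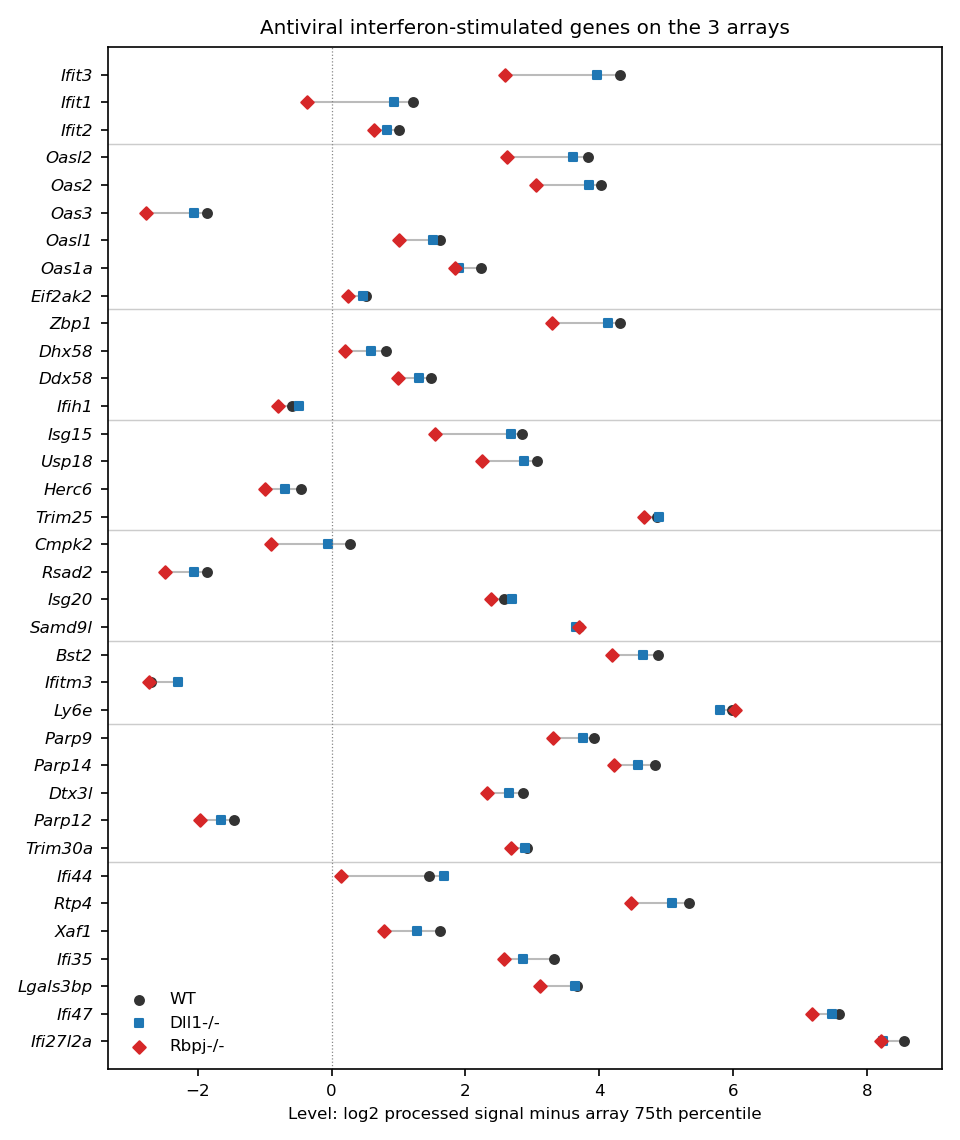
Level of each measured member (log2 signal relative to the array's 75th percentile, horizontal axis) on the WT (black circle), Dll1-/- (blue square) and Rbpj-/- (red diamond) array, grouped by role from the IFIT genes at the top to the other genes at the bottom. Each symbol is 1 array; Ifit3 lies at 4.31, 3.97 and 2.60 in that order, and 35 of 36 red diamonds lie left of the black circles.

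The IFIT proteins bind viral RNA that lacks the host cap modification and block its translation. Ifit3 was at 4.31 in WT, 3.97 in Dll1-/- and 2.60 in Rbpj-/-. That is 3.27-fold lower in Rbpj-/- than in WT, and 0.285% of all measured genes had a lower difference. Ifit1, the cap-binding member, was at 1.21, 0.93 and -0.37 in the same order, or -1.58 in Rbpj-/- relative to WT. Ifit2 did not share this size, although it is the direct neighbour of Ifit3 on chromosome 19: its levels were 1.01, 0.83 and 0.63, a difference of -0.39. For Ifit1 and Ifit3 the Dll1-/- array was also below WT, at -0.28 and -0.33, where the median over the members was -0.19. The Rbpj-/- array lay far below both.

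Isg15 encodes a ubiquitin-like modifier that is both conjugated to proteins and secreted. It was at 2.85 in WT, 2.69 in Dll1-/- and 1.54 in Rbpj-/-, 2.47-fold lower in Rbpj-/- than in WT. Its probes, printed at distant rows of the array, read -1.30 and -1.32. Usp18 removes Isg15 from proteins and also restrains the type I receptor. Its levels were 3.07, 2.88 and 2.25, or 1.76-fold lower in Rbpj-/-. Of the ligases, Herc6, the main mouse enzyme for Isg15 conjugation, was at -0.54 in Rbpj-/- relative to WT (-0.68 and -0.40 by single probes). Trim25, which also modifies RIG-I, was at -0.19. In Dll1-/- Isg15, Usp18 and Herc6 were at -0.17, -0.19 and -0.24 and Trim25 was at 0.04.

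Promoter sequence was available from RefSeq (GRCm38.p6, the 250 bases before and 50 bases after each start site) for 28 of the 40 members. Entries were missing for Oas1b, Oas2, Mx1, Mx2, Usp18, Dhx58, Rtp4, Zbp1, Parp9, Parp14, Ifi27l2a and Ly6e. The core of the ISRE was searched as GAAA, any 2 bases and GAAA again, on both strands (TTTC, 2 bases and TTTC in the reverse complement), with overlapping matches counted. It occurred in the windows of 13 of the 28 members (46.4%), against 3.99% of all 27025 genes with a window. The stretches below are those of the members that held a match and were at least 2-fold lower in Rbpj-/- (Ifit3, Ifit1 and Isg15), followed by the 2 measured members that held a match with the smallest difference (Ifitm3 and Ifih1). Each is written 5′ to 3′ on the gene's own strand, with motif matches in capitals.
Ifit3: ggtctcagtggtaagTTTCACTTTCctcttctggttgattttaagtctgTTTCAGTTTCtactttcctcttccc
Ifit1: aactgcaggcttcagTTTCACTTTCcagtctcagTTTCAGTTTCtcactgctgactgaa
Isg15: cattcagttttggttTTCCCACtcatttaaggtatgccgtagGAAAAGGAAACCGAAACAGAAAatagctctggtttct
Ifitm3: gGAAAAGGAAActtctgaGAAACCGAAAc
Ifih1: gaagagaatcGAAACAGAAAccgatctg
In GRCm38.p6 these lie at chr19:34583358-34583431 on the plus strand for Ifit3, at chr19:34640770-34640828 on the plus strand for Ifit1, and at chr4:156200860-156200938 on the minus strand for Isg15. Those of Ifitm3 and Ifih1 lie just after the start site, at chr7:141010715-141010743 and chr2:62646206-62646233, both on the minus strand. Ifit3 and Ifit1 each held 2 ISRE matches in the antisense orientation, and both genes shared the letters TTTCACTTTC and TTTCAGTTTC. Isg15 held 3 overlapping matches in 1 run and, further upstream, TTCCCAC.

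That last match is the reverse complement of GTGGGAA, the site searched for Rbpj. It occurred in 3 of the 28 members, Isg15, Eif2ak2 and Trim25, and in 7.25% of all genes with a window. Their differences in Rbpj-/- relative to WT were -1.31, -0.26 and -0.19, so these 3 members held both a large difference and small ones. Holding an ISRE match did not separate the members by size either. The median difference was -0.56 over 12 measured members with a match, from -1.71 to -0.03, and -0.54 over 15 without one, from -1.32 to 0.00. A match is a run of letters and not evidence of binding, and its absence says only that these letters were not in the window.

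**Figure D2:**
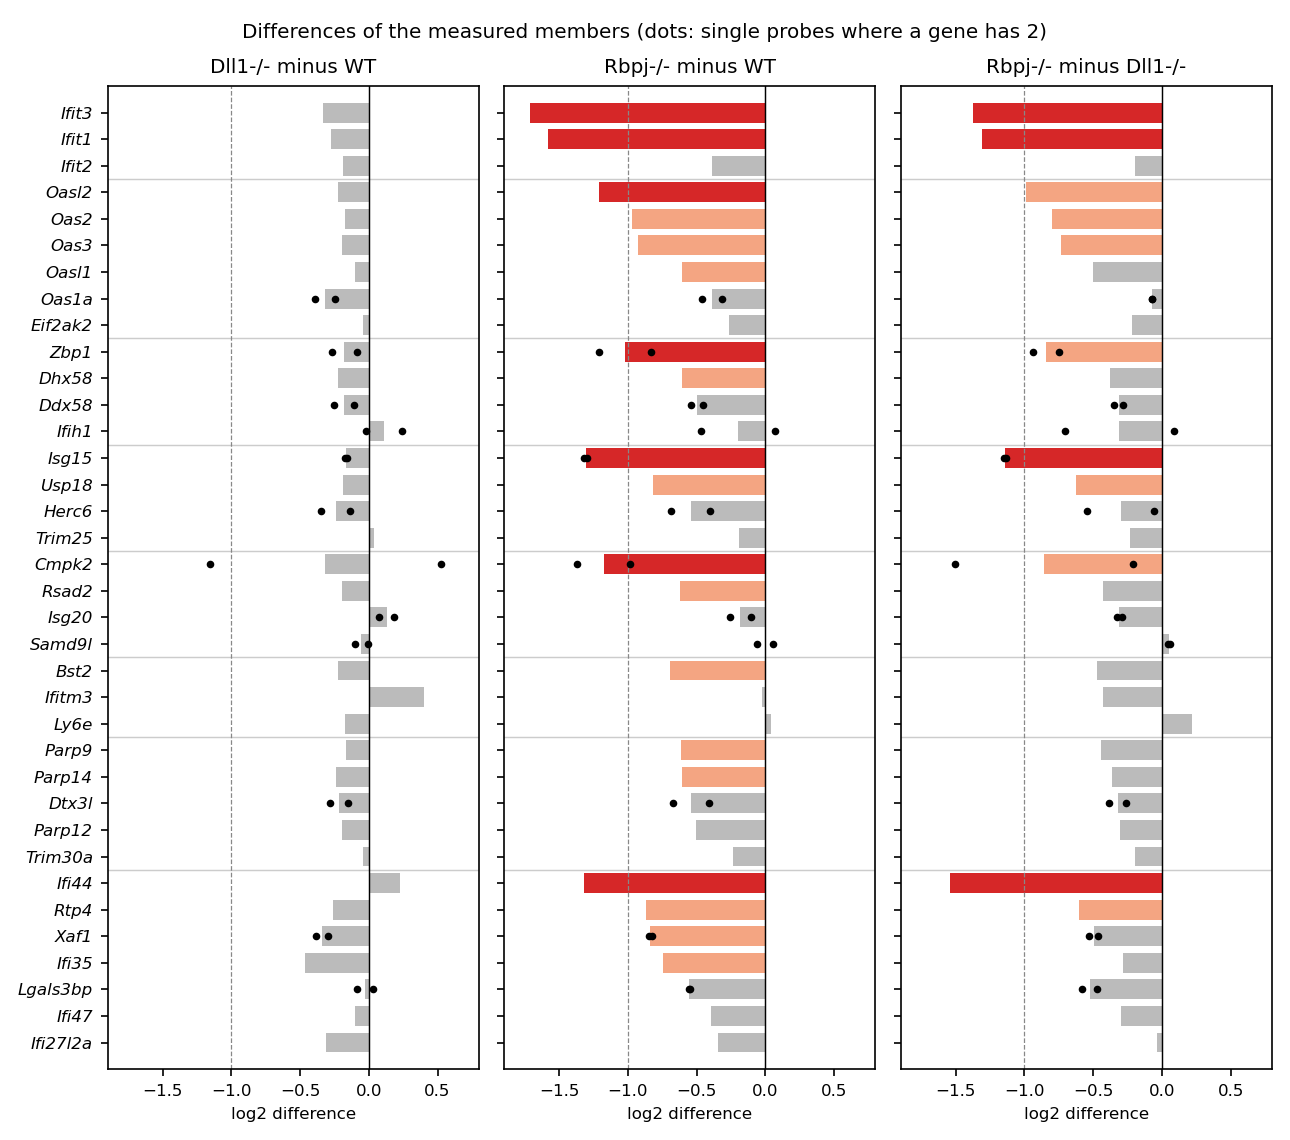
Log2 difference of each measured member for Dll1-/- minus WT, Rbpj-/- minus WT and Rbpj-/- minus Dll1-/- (bars), with single probes as black dots where a gene has 2; red bars are at least 2-fold and orange bars at least 1.5-fold lower. The middle panel holds 7 red bars, the right panel 4 and the left panel 0, and the Cmpk2 probes lie far apart in the left panel.

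The oligoadenylate synthetases make a second messenger from double-stranded RNA that activates RNase L, and the Oasl proteins are relatives that act on RNA sensing. Oasl2 was at 3.83 in WT, 3.61 in Dll1-/- and 2.62 in Rbpj-/-, 2.32-fold lower in Rbpj-/- than in WT. Oas2 was at 4.02, 3.85 and 3.05, just short of 2-fold at -0.97. Oas3 was at -1.86, -2.05 and -2.78, or -0.92, on a dim probe whose signal of 20.6 in Rbpj-/- lay near that array's lowest signal well above background, 15.8. Oasl1, which lies next to Oasl2 on chromosome 5, differed less: its levels were 1.62, 1.52 and 1.01, or -0.60. Oas1a behaved differently from its relatives, with levels of 2.23, 1.91 and 1.84. Both knockout arrays were below WT for Oas1a by a like amount, -0.32 in Dll1-/- and -0.39 in Rbpj-/-, and they differed from each other by -0.07. Eif2ak2 encodes PKR, the kinase that stops translation on sensing double-stranded RNA, and was at -0.26 in Rbpj-/- and -0.04 in Dll1-/-.

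Among the sensors of foreign nucleic acid, Zbp1, which detects Z-form nucleic acid and can trigger necroptosis, was at 4.31 in WT, 4.13 in Dll1-/- and 3.29 in Rbpj-/-. The mean of its probes was just past 2-fold at -1.02, and the probes read -0.83 and -1.21. Dhx58 encodes LGP2, a regulator of the RIG-I-like receptors, and was at 0.81, 0.58 and 0.20, or -0.61 in Rbpj-/-. Ddx58, which encodes RIG-I, was at -0.50 (-0.45 and -0.54 by single probes). Ifih1 encodes MDA5, the sensor of long double-stranded RNA, and its value of -0.20 depends on a probe that was not well above background in WT and Rbpj-/-. By the probe well above background on both arrays Ifih1 was at 0.07, so with only such probes 34 rather than 35 members were below WT.

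Rsad2 and Cmpk2 are neighbours on chromosome 12. Rsad2 encodes viperin, which makes a chain-terminating nucleotide, and was at -1.87 in WT, -2.06 in Dll1-/- and -2.49 in Rbpj-/-, or -0.62. Its probe was dim, with signals of 48.7, 37.3 and 25.2. Cmpk2, a mitochondrial nucleotide kinase, was at 0.27, -0.05 and -0.91, or -1.18 in Rbpj-/- relative to WT. Both Cmpk2 probes were lower there, at -1.37 and -0.98. In Dll1-/- they pointed opposite ways, at -1.16 and 0.52, so the gene's mean of -0.32 in that comparison describes neither. Isg20, an exonuclease that degrades RNA, was at -0.18 in Rbpj-/- and 0.13 in Dll1-/-. Samd9l, a restriction factor of poxviruses, was at 0.00 in Rbpj-/- (-0.06 and 0.05 by single probes) and -0.05 in Dll1-/-, and so did not share the lower level of the set.

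Membrane proteins that act at viral entry or budding were mixed. Bst2 encodes tetherin, which holds budding virus on the cell surface, and was at 4.88 in WT, 4.66 in Dll1-/- and 4.19 in Rbpj-/-, or -0.69. Ly6e, a lipid-anchored surface protein, was the 1 member above WT in Rbpj-/-, at 0.04, with levels of 5.98, 5.81 and 6.02. Ifitm3 blocks fusion of viruses with endosomes. Its probe was printed 10 times and dim, with mean levels over spots of -2.70 ± 0.19 (SD, n = 10 spots) in WT, -2.30 ± 0.13 (SD, n = 9 spots) in Dll1-/- and -2.73 ± 0.36 (SD, n = 10 spots) in Rbpj-/-. Its difference in Rbpj-/- relative to WT, -0.03, was smaller than the spread between spots, and in Dll1-/- it had the highest value of any member at 0.40.

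The Parp family members and the ligase Dtx3l were lower in Rbpj-/- by similar amounts. Parp9 and Dtx3l form a complex that modifies histones and supports interferon responses, and Parp14 is their neighbour; the 3 genes lie side by side on chromosome 16. Parp9 was at 3.92 in WT, 3.76 in Dll1-/- and 3.31 in Rbpj-/-, or -0.61. Parp14 was at 4.83, 4.59 and 4.22, also -0.61. Dtx3l was at -0.54 and Parp12, a transferase that restricts several RNA viruses, at -0.50. Trim30a, an inhibitor of inflammatory signalling, was lower by less, at -0.24. In Dll1-/- these 5 genes ran from -0.24 for Parp14 to -0.04 for Trim30a.

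Of the other members, Ifi44, a cytosolic protein with a GTP-binding motif, gave the widest gap between the knockouts. It was at 1.45 in WT, 1.68 in Dll1-/- and 0.14 in Rbpj-/-, so Rbpj-/- was 2.49-fold below WT and 2.92-fold below Dll1-/-. Rtp4, a chaperone-like protein that restrains viral replication, was at 5.35, 5.08 and 4.48, or -0.87. Xaf1, which opposes the apoptosis inhibitor XIAP, was at 1.62, 1.28 and 0.78, with probes at -0.82 and -0.85. Ifi35, a leucine zipper protein, was at 3.32, 2.86 and 2.58, and its value of -0.46 in Dll1-/- was the lowest of any member there, with -0.74 in Rbpj-/-. Lgals3bp, a secreted galectin-binding glycoprotein, was at -0.55 in Rbpj-/- and -0.03 in Dll1-/-. Ifi47, by sequence an Irg family GTPase although it was listed among the members, was at -0.40 and -0.10. Ifi27l2a was at -0.35 in Rbpj-/- and -0.31 in Dll1-/-, so it resembled Oas1a in differing little between the knockouts, by -0.04.

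Each member rests mostly on 1 or 2 probes, so agreement between probes was checked. For 11 members with 2 probes well above background on all arrays, both pointed the same way in 10 for Rbpj-/- against WT and in 9 for Dll1-/- against WT. The exception in the former was Samd9l, and those in the latter were Cmpk2 and Lgals3bp. Member probes were also read by their position on the array. In rows 1 to 192 all 22 member probes well above background on all arrays were lower in Rbpj-/- than in WT, with a median of -0.61. In rows 193 to 384 the same held for 22 of 25, with a median of -0.60. For Dll1-/- the medians were -0.16 in rows 1 to 192 and -0.20 in rows 193 to 384.

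**Figure D3:**
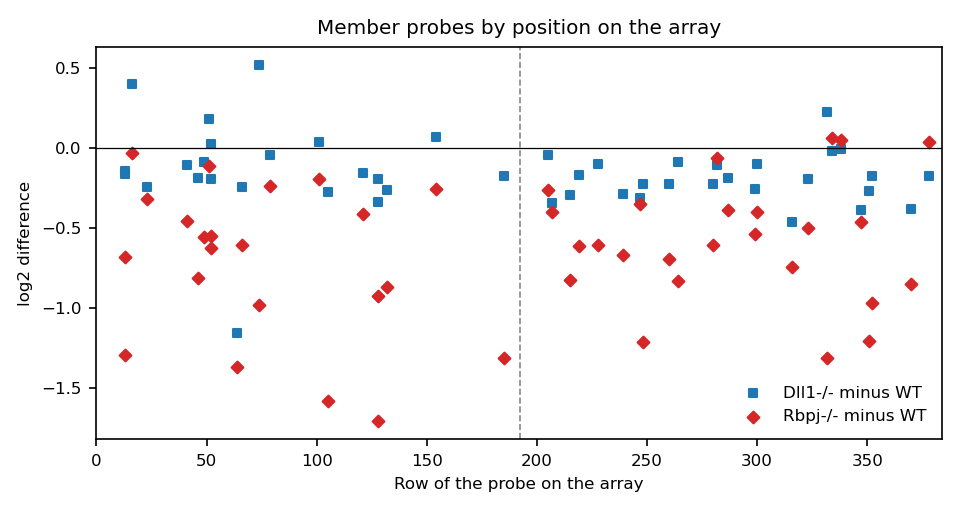
Log2 difference of each member probe that was well above background on all 3 arrays (vertical axis) against the row of the array in which it was printed, for Dll1-/- minus WT (blue squares) and Rbpj-/- minus WT (red diamonds); the dashed line divides rows 1 to 192 from rows 193 to 384. Probes below 0 in Rbpj-/- lie on both sides of it, 22 of 22 on the left and 22 of 25 on the right.

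The upstream pathway was read from fixed gene lists. Of 10 interferon genes, 3 were measured in both WT and Rbpj-/- and 2 were at least 1.5-fold lower in Rbpj-/-: Ifng, the type II interferon of helper T cells, at -1.29, and the type I gene Ifna1 at -0.73. Probes for interferon alpha genes can pick up their close relatives, and Ifnb1 stayed at background on all 3 arrays. In Dll1-/- Ifng was at 0.11 and Ifna1 at 0.32. Among receptors and kinases 1 of 8 measured genes was at least 1.5-fold lower in Rbpj-/-, the interferon gamma receptor chain Ifngr2 at -0.64. The type I receptor chains Ifnar1 and Ifnar2 were at -0.19 and 0.09. The Ifnar1 value is a mean over probes that disagreed, so it describes none of them. Relative to WT these read 0.681 for the dimmest probe, -0.259 for the next and -0.999 for the brightest. Among 6 transcription factors 3 were at least 1.5-fold lower: Irf7, which amplifies type I interferon production, at -1.51, Irf1, a target of interferon gamma, and Stat2 at -0.80. Irf1 was at -0.62 by its bright probe, while the mean over both probes, -1.08, included a dim probe that was not well above background in Rbpj-/-. Irf9 was at -0.36. Of 7 negative regulators 6 were below WT, and Socs1, which blocks Jak kinases, was at -1.21. In Dll1-/- Irf7 was at -0.55, Stat2 at -0.04 and Socs1 at -0.11, and Irf1 was at -0.17 by its bright and -0.69 by its dim probe. Of the genes in these 4 lists that were measured on both arrays of a comparison with WT, none was at least 1.5-fold higher in either knockout. Outside that count, the type I gene Ifnk was well above background in Rbpj-/- alone, by a dim probe with signals of 8.62 in WT and 37.5 in Rbpj-/-, and was at least 2.45-fold higher there than in WT. This bound sets the scaled signal in Rbpj-/- against the lowest signal well above background on the WT array.

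Related interferon-responsive lists gave like or smaller medians in Rbpj-/- relative to WT. For 15 Gbp and Irg GTPase genes the median was -0.58, with 14 below WT, of which 7 differed by 1.5-fold or more and 0 by 2-fold. For 16 MHC class I presentation genes it was -0.42, with 15 below WT and 3 at least 1.5-fold lower. For 16 Irf and Stat genes it was -0.35, with 12 below WT and 5 at least 1.5-fold lower. At least 2-fold lower were 2 of these by the mean over probes and 1, Irf7, after leaving out probes that were dim on either array. In Dll1-/- the medians were -0.18, -0.18 and -0.04 for these lists, next to -0.19 for the antiviral members. No test of the difference between lists was made.

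**Figure D4:**
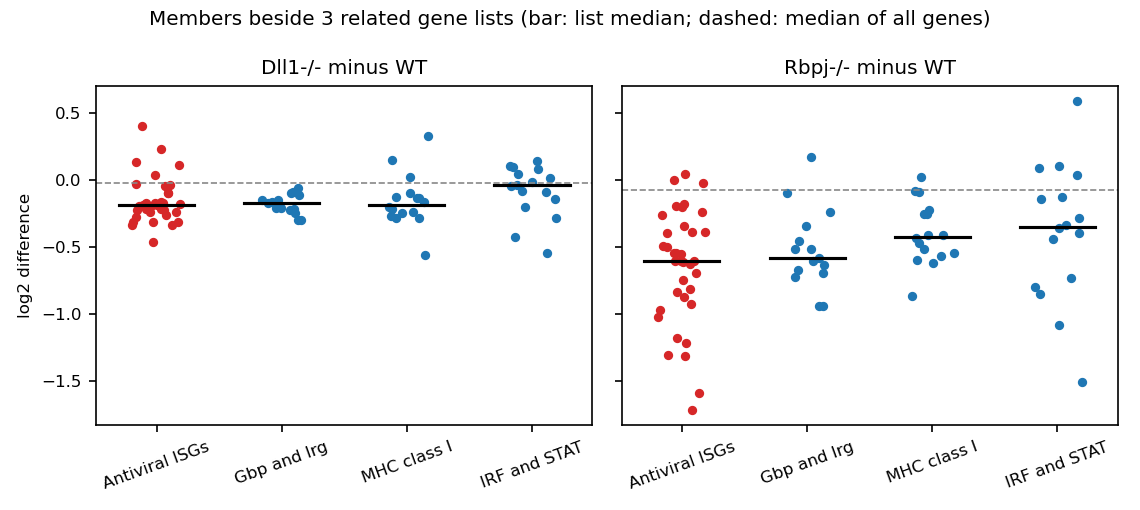
Log2 difference of each measured gene in 4 lists for Dll1-/- minus WT (left) and Rbpj-/- minus WT (right); points are genes, black bars list medians and the dashed line the median of all genes. The antiviral members have a median of -0.19 on the left and -0.61 on the right, next to -0.18 and -0.58 for the Gbp and Irg genes.

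**Figure D5:**
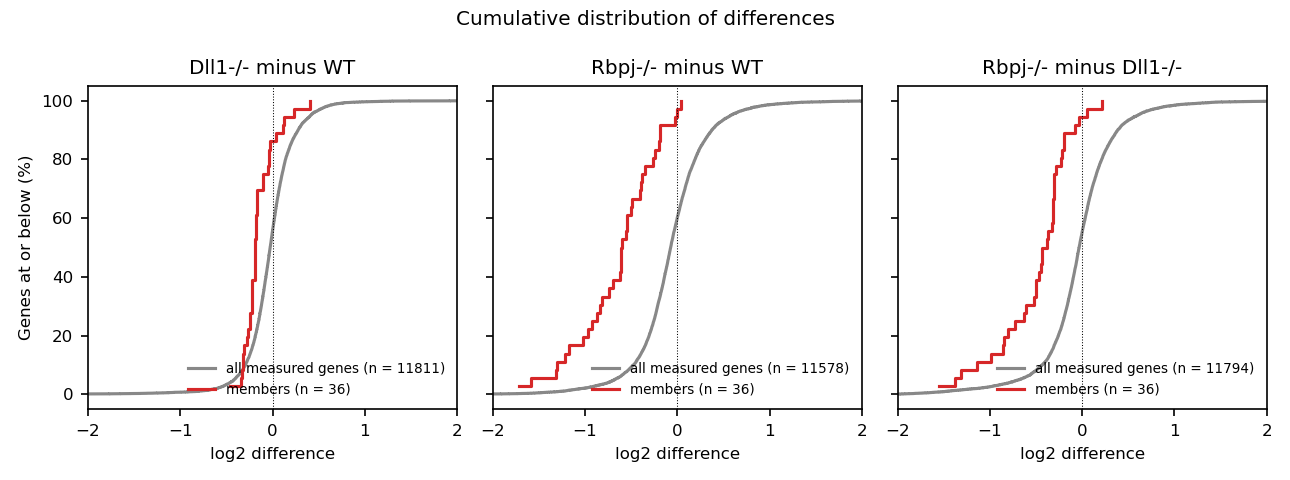
Cumulative share of genes (%) at or below each log2 difference for all measured genes (grey) and the 36 measured members (red) in the 3 comparisons; the axis is limited to 2 log2 units each way. The red curve lies left of the grey one over most of its range, with medians of -0.19, -0.61 and -0.41 against -0.03, -0.07 and -0.03.

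Levels of other cell types' markers also differed between the arrays. Summed signals are given as multiples of the array's 75th percentile signal, in the order WT, Dll1-/- and Rbpj-/-. The 6 CD4 T cell markers summed to 416, 386 and 427. Most of this sum came from the T cell receptor complex genes Cd3d, Cd3e and Cd3g, while Cd4 was at 3.81, 3.69 and 4.94. Within that list Cd40lg, the CD40 ligand of activated helper T cells, was well above background in WT alone, with signals of 52.6, 8.49 and 4.22, and was at least 2.64-fold lower in Rbpj-/- and 3.38-fold lower in Dll1-/-. The 6 B cell markers summed to 24.2, 23.1 and 17.7. The 5 NK cell markers summed to 2.05, 2.07 and 1.16 and the 2 CD8 T cell markers to 1.23, 1.21 and 0.798. These 3 sums were lowest in Rbpj-/-, but not every marker in them was. Of 4 B cell markers measured in both WT and Rbpj-/-, 3 were below WT and Cd22 was at 0.02. The B cell gene Cd79a and the NK cell gene Klrb1c were well above background in Rbpj-/- but not in WT. By dim probes they were at least 2.13-fold and 1.67-fold higher in Rbpj-/-. Most of the NK cell sum came from Eomes, which activated T cells also express, at 1.72, 1.36 and 0.740. The defining NK cell gene Ncr1 stayed at background on all 3 arrays. The 6 macrophage and monocyte markers summed to 6.01, 5.57 and 6.70, with Adgre1, Cd14 and Fcgr1 not well above background on any array. Most of this sum came from Itgam, at 4.98, 4.41 and 5.42. Its 2 probes well above background pointed opposite ways in Rbpj-/- relative to WT, at 0.66 for the bright and -0.41 for the dim one. The 5 neutrophil markers, of which Ly6g had no probe, summed to 2.67, 2.02 and 3.48. In Rbpj-/- relative to WT S100a8 and S100a9 were at 0.70 and 0.86, but Elane was at -0.002 and Mpo at -0.27. In Dll1-/- these 4 genes were at -1.34, -1.14, -0.05 and 0.10. Of 6 conventional dendritic cell markers 5 were not well above background on any array, and Cd209a was above it in Dll1-/- alone. The 6 plasmacytoid dendritic cell markers, of which Klk1 stayed at background on all 3 arrays, summed to 548, 607 and 622. Nearly all of this came from 1 of the 2 Siglech probes, at a level of 9.07, 9.22 and 9.26, while the other Siglech probe was not well above background. The part of these cell types in the lower antiviral levels was not tested.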

How the data were processed

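Total RNA from 3 samples, 20 ng each, was labelled with Cy3, per the labels' protocols. The authors deposited scanner files with an intensity per spot, background-subtracted and detrended by Feature Extraction 10.7.1.1, per the file headers (10.7 per the submitters' processing notes), and a series table of log2 values. That deposited log2 table equalled the log2 processed signal plus a constant per array (-7.47, -7.27 and -7.14) within 0.01 for 100% of probes, with column medians of -3.44, -3.40 and -3.28. The arrays shared 1 slide and 1 scan time.

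Outlier spots (143, 163 and 139) were left out, 0 were saturated, and spots were averaged to 55678 probes. Log2 signals had the array's 75th percentile subtracted (7.47, 7.28 and 7.14). Accessions named 27507 probes (49.4%) through a GRCm38.p6 gene table. A gene's level averaged those of its probes that were well above background on 1 array or more. A gene was counted as measured in a comparison when 1 of its probes passed this limit on both arrays, and sizes of 2-fold and 1.5-fold were counted. No test was possible with 1 array per group. With 1 array per group, the number of arrays limits the precision. The 2-fold calls were checked on simulated data.

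Members, lists and sizes were chosen with earlier results of these data known. Levels on all 3 arrays are given for members at least 1.5-fold apart in any comparison, Ifit2, Oas1a, Ly6e and Ifitm3 being added after their values were seen, and other members by difference. Cell type markers and pathway genes were fixed lists, from which the genes at least 1.5-fold apart, at most 4, are named, others being named after their values were seen. Alternatives covered background correction (normexp, offset 50, with quantile normalization, limma 3.58.1 in R 4.3.3), scaling, the filter on dim probes, the choice of probe, the part of the array and the series table. Python 3.11.15 with pandas 2.3.3 was used.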

Additional observations from a re-analysis of the deposited data

How the results depend on the processing

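No median over the members changed sign under any alternative run, and no member at least 1.5-fold apart changed direction. Normexp correction with quantile normalization gave medians of -0.38 for Rbpj-/- minus WT and -0.24 for Rbpj-/- minus Dll1-/-, the latter with 2 members at least 2-fold lower. Scaling to array medians gave -0.77 with 11 members and -0.53, and it moved the median of all genes to -0.24 and -0.15. Scaling to 8 E1A spike-in probes gave -1.35 with 29 members, -0.94 with 15 and, for Dll1-/- minus WT, -0.39, with all genes at -0.81, -0.57 and -0.23. At least 1.5-fold lower in Rbpj-/- minus WT were 12 members under normexp and 36 under E1A scaling (19 as reported), and in Rbpj-/- minus Dll1-/- 33 under E1A scaling (11 as reported). Members minus all genes stayed at -0.53, -0.37 and -0.16 under these scalings by construction. Spots in rows 193 to 384 alone, with 23 members, gave 3 members at least 2-fold lower in Rbpj-/- minus WT, and -0.31 with 1 member in Rbpj-/- minus Dll1-/-. Spots in rows 1 to 192, with 18 members, gave 4 in Rbpj-/- minus WT. Of the 7 members at least 2-fold lower, Cmpk2 and Zbp1 were at -0.71 and -0.82 under normexp and the other 5 ran from -1.52 for Ifit3 to -1.04 for Isg15. Naming probes by a gene name column was not run, since the scanner files used here name probes by accession alone, so probes of Mx1, Mx2 and Oas1b under other accessions would be missed. No paired analysis was possible because each genotype has 1 array, and none could be left out. Oas3, Rsad2 and Ifitm3 lie near background, which limits their differences.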
